A study of Rattus norvegicus with 32 samples.

Results

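The 82 genes described here mostly encode secreted growth factors and morphogens, their receptors and binding proteins, and the Smad proteins that carry signals from some of these receptors to the nucleus. They were chosen by gene symbol alone: symbols that begin with Fgf, Tgfa, Tgfb, Tgfi, Bmp, Igf, Pdgf, Egf, Vegf, Smad, Wnt, Fzd, Notch, Inha or Inhb, with Fgfr3 left out. They are 82 of the 5022 genes that the array measured under 1 symbol. By family they were 25 FGF genes, 18 TGF-beta genes (with the activin and inhibin subunits and the Smads), 8 BMP, 9 IGF, 5 PDGF, 4 EGF, 3 VEGF, 8 WNT and 2 Notch genes. Differences could be tested for 81 of them; Fzd9 had too few values. The choice by symbol also took in Fgf11 to Fgf14, which stay inside the cell. It likewise took in the kinase Bmp2k, the adaptor Tgfb1i1 and the metalloprotease Bmp1.

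Each 2-colour spotted array held 1 lung sample beside a common pool made from organs of untreated rats. Male Sprague-Dawley rats of 280 to 300 g carried arterial catheters and a telemetry device, recovered for 7 to 10 days and then lost 40% of their estimated blood volume (taken as 6.5% of body weight). Bled lungs were taken at 1 h (3 arrays used), 3 h (3), 6 h (5), 16 h (2 of 3), 24 h (3), 48 h (3) and 72 h (3). The sham group (5 arrays used of 6) had the same instruments and no bleeding, and the control group (3 arrays) had neither instruments nor bleeding. No label numbers the animals, so each p-value reflects the spread among these samples alone. They do not give the hour at which sham lungs were taken. Which dye marked the lung is not stated either; the direction of the ratio, lung over pool, was read from genes of the lung.

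Sham replicate 2 and 16 h replicate 3 were left out because liver genes stood high on them. The median over 12 liver genes was 3.37 on that sham array and 2.91 on that 16 h array, and at most 0.36 on the 30 arrays used. It was not even among these. The highest array stood at 0.36 at 48 h, 0.29 at 6 h and 0.20 at 24 h, against -0.99 to -0.54 in the sham lungs used. The part of this liver signal in the differences was not tested. On sham replicate 2, 15 of the 82 genes lay outside the range of the 30 other arrays, and on 16 h replicate 3 it was 19. The 12151 to 12895 spots with a value on an array gave 5993 features that could be tested, and precision is limited by how many arrays each group has. Lung identity was clear on the arrays used: the median over 10 genes of lung epithelium, among them the surfactant proteins, lay between 0.90 and 2.58. That median was 1.19 to 1.74 at 48 h and 0.90 to 1.27 at 72 h, against 1.59 to 2.58 in sham lungs, so all 72 h arrays lay below sham and the 48 h arrays overlapped it.

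Many growth factors of these families act between neighbouring cells, while Fgf19, Fgf21 and Fgf23 are endocrine. A ligand binds a receptor on the surface, binding proteins hold or present the ligand, and kinases, Smads or other transducers change transcription inside the cell. In the lung, FGF and BMP signals shape branching during development, VEGF maintains the capillary bed, EGF-family ligands act on epithelial repair, and TGF-beta is known for its part in matrix formation and fibrosis.

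Promoter sequence is shown for the 3 FGF-pathway genes whose late lungs differed most firmly from early lungs, and for Tgfa, the gene lowest over the whole time course. Each line is the 250 bases before the annotated start of the gene in the RefSeq annotation of build GRCr8, 5′ to 3′ along the gene's own strand. Capitals mark matches to 3 sets of letters on either strand: GGGCGG (the GC box bound by Sp1), CAGAC (a core bound by Smads) and ACGTG (the core of the hypoxia response element); TGANTCA, the AP-1 site, was searched too.
Fgf8, chr1:254539606-254539855, minus strand: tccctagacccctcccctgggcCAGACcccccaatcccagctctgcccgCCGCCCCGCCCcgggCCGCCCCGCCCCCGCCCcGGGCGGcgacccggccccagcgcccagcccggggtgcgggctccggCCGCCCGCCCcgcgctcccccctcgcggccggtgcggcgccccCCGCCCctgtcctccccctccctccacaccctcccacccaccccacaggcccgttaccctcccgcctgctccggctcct
Fgf9, chr15:36327108-36327357, plus strand: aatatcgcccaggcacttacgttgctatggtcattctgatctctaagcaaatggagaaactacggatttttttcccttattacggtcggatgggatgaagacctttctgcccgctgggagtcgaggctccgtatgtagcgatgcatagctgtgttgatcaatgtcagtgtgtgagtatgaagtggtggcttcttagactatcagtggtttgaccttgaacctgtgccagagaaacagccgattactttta
Fgfbp1, chr14:71318633-71318882, plus strand: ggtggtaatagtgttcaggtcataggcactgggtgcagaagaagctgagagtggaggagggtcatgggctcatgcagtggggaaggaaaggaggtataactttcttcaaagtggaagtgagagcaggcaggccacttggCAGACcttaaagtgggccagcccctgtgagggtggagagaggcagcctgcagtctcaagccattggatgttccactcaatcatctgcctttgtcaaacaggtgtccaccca
Tgfa, chr4:120175469-120175718, plus strand: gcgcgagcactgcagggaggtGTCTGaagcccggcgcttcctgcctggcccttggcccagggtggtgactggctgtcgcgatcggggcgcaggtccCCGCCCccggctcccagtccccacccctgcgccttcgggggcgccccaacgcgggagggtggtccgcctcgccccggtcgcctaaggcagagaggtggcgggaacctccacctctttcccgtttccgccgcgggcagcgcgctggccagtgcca
The Fgf8 window held 9 GC boxes, overlapping ones counted, and 1 CAGAC, and its GC content was 83.2%. The Fgf9 window, with a GC content of 46%, held none of the 4 motifs. Fgfbp1 had 1 CAGAC and a GC content of 53.6%. Tgfa had 1 GC box and 1 CAGAC (as GTCTG on this strand) and a GC content of 74.4%. Among 27457 rat promoter windows of this length 32.4% held a GC box, 42.8% CAGAC, 16.9% ACGTG and 6.36% TGANTCA. Of the 71 of the 82 genes with a window in the table, 36 held a GC box, 24 CAGAC, 16 ACGTG and 3 TGANTCA. A match describes the letters only, and no match says nothing of a factor.

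In unbled lung (8 arrays, sham and control together) 51 of the 82 genes had a mean log2 ratio above 0, which means more signal than the organ pool after each array was centred on its median. Of the 5993 features tested 2942 did. The ratio depends on what other organs add to the pool, so it does not rank the genes by abundance. Vegfa, the ligand that drives and maintains blood vessels, averaged 1.19 ± 0.38 (SD, n = 8), and all 8 arrays lay above 0. Igf2r, the receptor that takes IGF2 and lysosomal enzymes to the lysosome, averaged 0.99 ± 0.21. Tgfa, a ligand of the EGF receptor, averaged 0.82 ± 0.30, Inhba, the activin A subunit, 0.81 ± 0.23, and Fgf9, an FGF that epithelium and mesothelium make in the developing mouse lung, 0.77 ± 0.23. These 5 genes had more signal in lung than in the pool on every unbled array, as did 24 of the 82 in all. Another 17 lay below it on every unbled array with a value. Among the 81 tested these counts are 29.6% and 21%, against 17.4% and 21.7% of the features tested.

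Other genes above the pool were Igfbp3, the main IGF carrier of blood, at 0.93 ± 0.44, Fzd4, a WNT and norrin receptor of endothelium, at 0.80 ± 0.43, and Egfl7, a protein secreted by endothelium, at 0.75 ± 0.26. The lowest mean ratios belonged to Fgf13, an FGF that stays inside the cell, at -3.30 ± 1.30, to Inhbe at -1.87 ± 0.57 and to Egfr, the EGF receptor, at -1.85 ± 2.01. Each of these 3 had a value on 7 of the 8 arrays. Paired spots of these low genes agreed poorly: across arrays they correlated at 0.40 for Fgf13, 0.15 for Inhbe and 0.38 for Egfr, against a median of 0.86 over the 82 genes. Fzd3, with -1.68 ± 0.43, was low too, but its spots correlated at 0.87. The family medians were 0.65 for VEGF, 0.59 for EGF, 0.45 for BMP, 0.34 for TGF-beta, 0.15 for IGF, 0.12 for WNT, -0.05 for PDGF and -0.32 for FGF. Of the 25 FGF genes 9 lay below the pool on every unbled array with a value, and 7 lay above it on every such array.

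**Figure D1:**
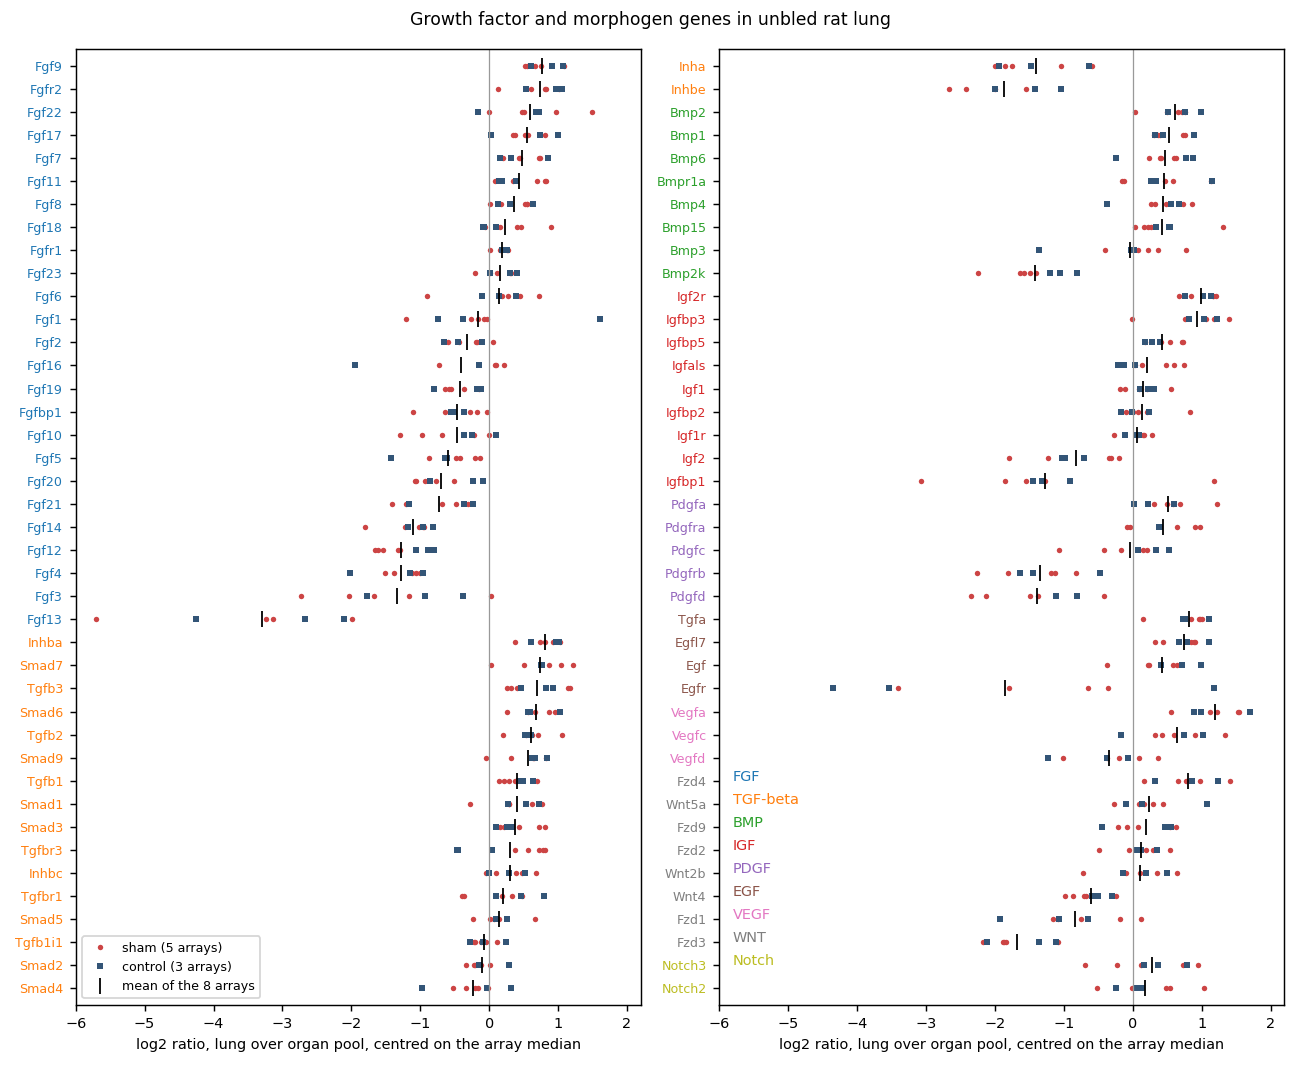
Log2 ratio of lung over organ pool, centred on the array median, for the 82 genes on the 5 sham arrays (circles) and 3 control arrays (squares). The bar is the mean of the 8 arrays, where they had a value, and gene names are coloured by family. Vegfa stands highest at 1.19 and Fgf13 lowest at -3.30; Egfr is spread most widely, with an SD of 2.01.

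Instruments without bleeding left these genes with no call. Between sham and control lungs limma called 0 of the 81 genes (an adjusted p under 0.05, Benjamini-Hochberg over all 5993 features, which is what "called" means throughout), and 0 of all features, which is 0%; 5 of the 81 genes and 4.71% of all features had an unadjusted p under 0.05, and all 5 genes were higher in sham (3.52% of features were). One of the 5 was Tgfbr3 (betaglycan, the co-receptor that presents TGF-beta), whose level at 72 h is given below. It had log2 ratios of 0.72, 0.38, 0.81, 0.56 and 0.79 in sham lungs, against -0.46, -0.45 and 0.04 in control lungs. The groups did not overlap, and the difference of 0.94 was not called (limma, adjusted p = 0.516). Of all features 1.52% lay wholly above control in sham lungs, against 2.47% of the 81 genes. Fgf16 differed by 0.96 and Fgf5 by 0.47 without a call.

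Across the time course the genes called were few, and their share was near that of all features at most times. At 1 h none of the 81 genes was called (0% of all features; 11 genes and 10.8% of features at an unadjusted p under 0.05). At 3 h 4 were called, all lower, against 2.8% of all features (1.75% lower). At 6 h it was 0 genes and 0% of features (16 genes and 18.7% at an unadjusted p), and at 16 h 0 genes and 0.0667% (15 genes and 14% at an unadjusted p). At 24 h 1 gene was called, lower, against 3.55% of features (2.7% lower), and at 48 h 2, both lower, against 1.17% (0.868% lower). At 72 h 7 were called, 3 higher and 4 lower, against 5.91% of features (2.04% higher and 3.87% lower). Read as shares of the 81 genes these are 4.94% at 3 h, 1.23% at 24 h, 2.47% at 48 h and 8.64% at 72 h. At an unadjusted p under 0.05 the features gave 22.4% at 3 h, 19.9% at 24 h, 16.2% at 48 h and 22.4% at 72 h, and the 81 genes 25.9%, 21%, 17.3% and 28.4%. Over any time limma's F test called 6 genes (7.41%, against 5.69% of features; 43.2% against 31% at an unadjusted p): Fgf8, Smad4, Tgfa, Fgf9, Tgfbr3 and Igf2r. The F calls of Fgf8, Smad4, Tgfa and Fgf9 were kept without each of 27 arrays in turn. That of Tgfbr3 was lost without 72 h replicate 2 (adjusted p = 0.0825) or 3 (0.0897) and that of Igf2r without 14 of the 27 arrays (adjusted p at most 0.0829). With all 32 arrays those of Tgfa (0.0512), Tgfbr3 (0.0798) and Igf2r (0.258) were lost. The count became 10 without 24 h replicate 2 (9.4% of all features).

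The median difference of the 81 genes from sham was -0.15 at 1 h, with 28 of 81 above 0, against a median of -0.01 over all features. At 3 h it was -0.15 against 0.01, at 6 h -0.02 against 0.02, at 16 h 0.14 against 0.04, and from 24 h on it lay between -0.04 and 0.03. At 1 h 17 of the 18 TGF-beta genes lay below sham by their fitted difference (median -0.24), the exception being Tgfbr1 at 0.15. Of all 5993 features 3071 lay below sham then. None of the 18 genes was called, and at 6 h 12 of them lay above sham. The 18 differences come from the same arrays, so they are not independent of each other. By the fitted difference 8 of the 81 genes lay above sham at all 7 times (Egfr, Fgf2, Fgf12, Fgf13, Fgfbp1, Fzd3, Notch3 and Pdgfrb) and 13 below (Bmp6, Fgf14, Fgf17, Fgf21, Fgfr1, Fgfr2, Fzd4, Igf1, Pdgfa, Smad5, Tgfa, Tgfb3 and Vegfa). These are 9.88% and 16% of the genes, against 12.6% and 13.5% of all features. Paired spots of Egfr, Fgf13 and Pdgfrb agreed poorly, with correlations of 0.38, 0.40 and -0.08. All 7 times share the same 5 sham arrays, so their differences are not independent of each other. A lack of overlap with sham is given below for single genes. At 1 h 3.64% of all features lay wholly above sham and 3.17% below, against 4.94% and 4.94% of the 81 genes. At 3 h it was 5.72% and 5.02% against 4.94% and 11.1%, and at 6 h 3.15% and 3.04% against 2.47% and 2.47%. At 16 h, with 2 bled arrays, it was 12.1% and 11.5% against 9.88% and 9.88%. At 24 h it was 4.89% and 6.57% against 3.7% and 4.94%, and at 48 h 5.57% and 8.09% against 11.1% and 4.94%. At 72 h it was 9.38% and 9.19% against 12.3% and 9.88%. The map of differences shows the calls scattered over families, with Tgfa and Fgf9 as the genes that carry more than 1.

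**Figure D2:**
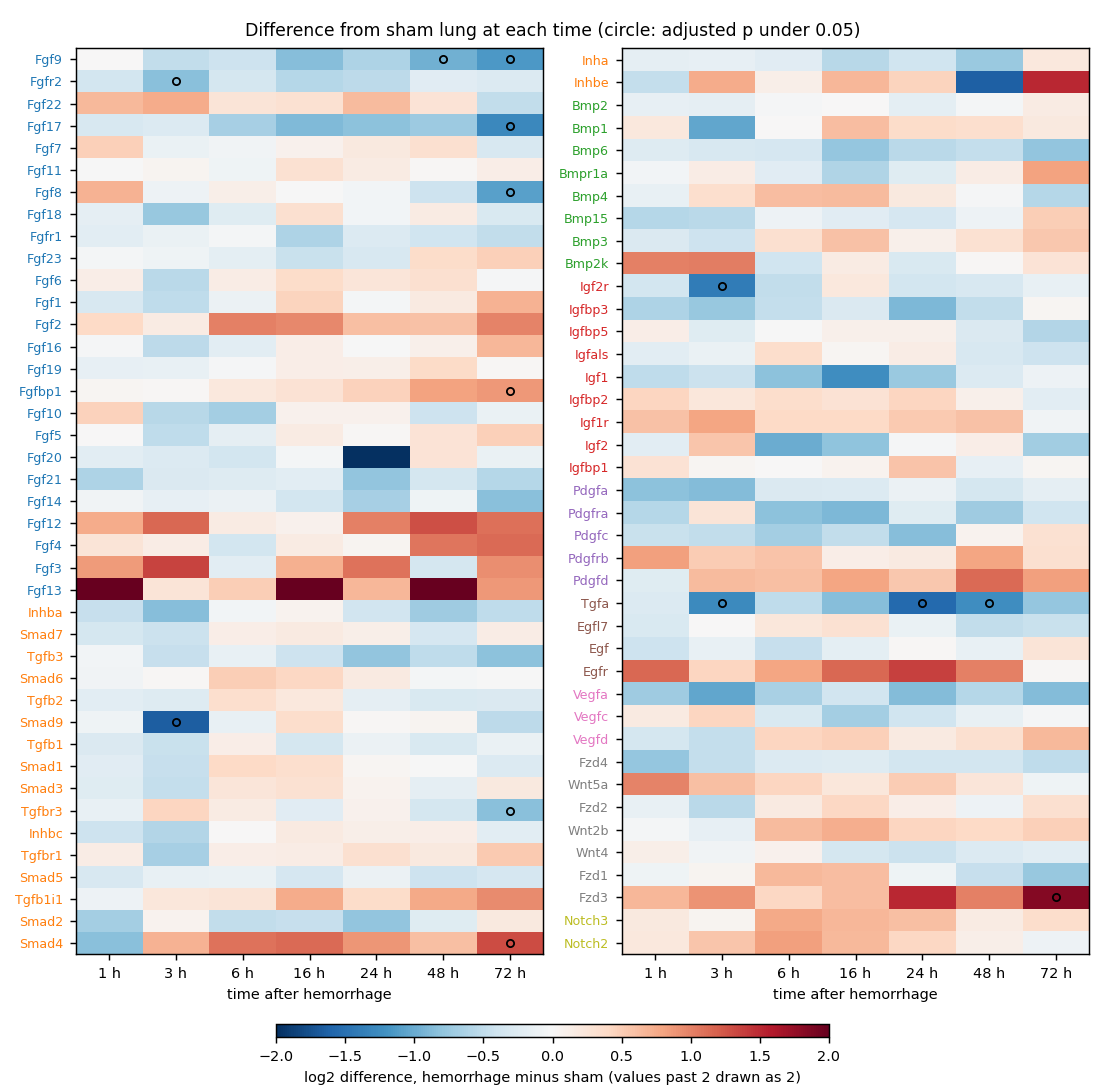
Log2 difference from sham for the 81 tested genes (rows, grouped by family colour as in the plot of unbled lung) at the 7 times (columns), red higher and blue lower, with differences past 2 drawn as 2 and a circle where the adjusted p was under 0.05. The 14 circles comprise 4 at 3 h, 1 at 24 h, 2 at 48 h and 7 at 72 h; 11 of them are blue.

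**Figure D3:**
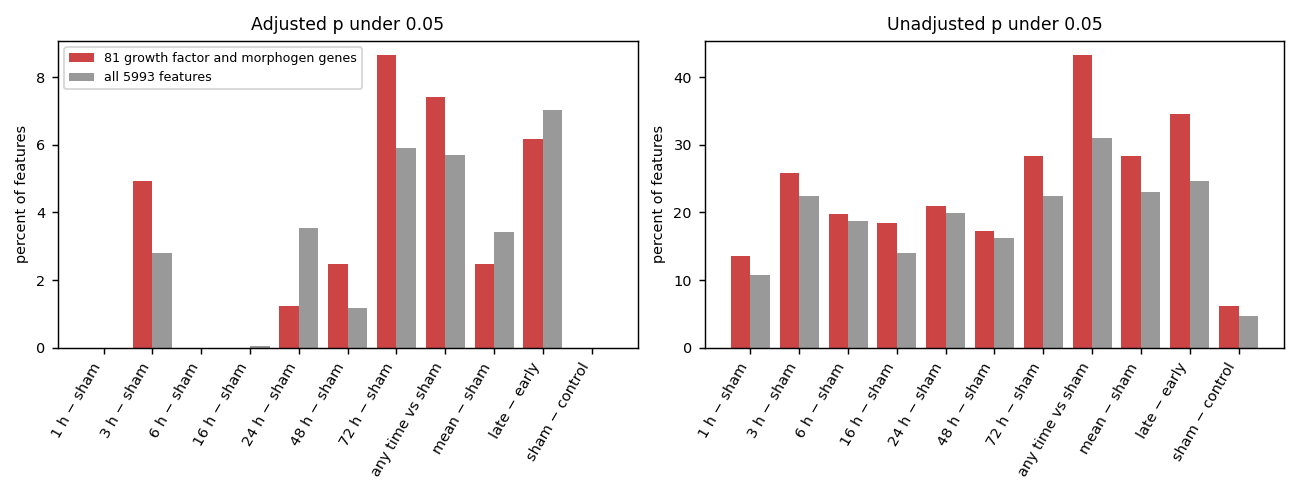
Percent of the 81 genes (red) and of all 5993 features (grey) past an adjusted p of 0.05 (left) and an unadjusted p of 0.05 (right) in each comparison. At 72 h the adjusted shares are 8.64% and 5.91%, and in the comparison of late with early lungs 6.17% and 7.04%.

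Among the ligands, Tgfa was called lower most often. TGF-alpha is a membrane-anchored ligand of the EGF receptor that epithelial cells and macrophages make. At 3 h it had log2 ratios of -0.78, -0.73 and 0.06, at 24 h -0.47, -0.41 and -1.44, and at 48 h -0.11, -1.08 and -0.16, against 0.97, 0.96, 0.15, 0.84 and 1.00 in sham lungs. All 9 of these bled arrays lay below all 5 sham arrays; sham replicate 4, at 0.15, was far below the other sham arrays. Tgfa fell by 1.27 at 3 h (SE 0.28, limma adjusted p = 0.0223), by 1.56 at 24 h (SE 0.28, adjusted p = 0.00516, a 2.95-fold difference) and by 1.23 at 48 h (SE 0.28, adjusted p = 0.0421). At the same times some cell type markers were called. Of the 10 epithelial genes Akap5 was lower at 3 h, Cdh1 at 24 h, and Cdh1 and Sftpb at 48 h. The median difference of the 10 was -0.09, -0.63 and -1.04 at these times. Of the 8 leukocyte genes Ptprc was lower at 24 h, where their median was 0.11. Of the 8 mesenchymal and smooth muscle genes Des was lower at 3 h and Col1a2 at 24 h and 48 h. Endothelial Plvap was lower at 24 h, and erythroid Rhag was higher. No other listed marker was called at these times. The part of these markers in the falls of Tgfa was not tested. In bulk tissue fewer cells of a type and less RNA per cell cannot be told apart.

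At the other times Tgfa lay below sham too, with differences of -0.28 at 1 h, -0.51 at 6 h, -0.85 at 16 h and -0.77 at 72 h, none called. Over the mean of the 7 times it fell by 0.92 (SE 0.19, adjusted p = 0.0104), where 2 of the 81 genes were called, both lower, against 3.42% of features (2.02% lower; 28.4% of the genes and 23% of features at an unadjusted p). The 22 bled arrays ran from -1.44 to 0.98 with a median of -0.06, so as a whole they overlapped sham. The 3 h call was lost without sham replicate 6 (adjusted p = 0.0535) and without 3 h replicate 1 or 2 (0.0682 and 0.0698), and the 24 h call without 24 h replicate 3 (a difference of -1.23, adjusted p = 0.0597). The 48 h call was lost without any single array but sham replicate 4 (adjusted p = 0.0593 to 0.195). With all 32 arrays the 3 h and 48 h differences were -1.15 and -1.12 (adjusted p = 0.103 and 0.148), and the 24 h call was kept. Egf, the other EGF-type ligand measured, was called at no time, and its differences ran from -0.45 to 0.25.

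Fgf9 was called lower at 48 h and 72 h. Its ratios were -0.09, -0.56 and -0.10 at 48 h and 0.12, -0.77 and -0.65 at 72 h, against 0.66, 1.09, 0.55, 0.51 and 0.75 in sham lungs. All bled arrays at both times lay below every sham array. Fgf9 fell by 0.96 at 48 h (SE 0.23, limma adjusted p = 0.0421) and by 1.15 at 72 h (SE 0.23, adjusted p = 0.00532, a 2.21-fold difference), and by 0.64 over the mean of the 7 times (SE 0.15, adjusted p = 0.0230). At 1 h its difference was 0.01. The Fgf9 arrays at 3 h (-0.03, 0.33 and 0.34) lay below every sham array, without a call. So did those at 16 h (-0.02 and -0.28) and 24 h (0.32, 0.12 and -0.18). The 72 h call was lost without 72 h replicate 2 (adjusted p = 0.0672) or 3 (0.0647), the call of the mean without sham replicate 1 (0.0572), 3 (0.0938) or 6 (0.0623), and the 48 h call without any single array but sham replicate 4 (0.0628 to 0.171). With all 32 arrays the 48 h difference was -0.92 (adjusted p = 0.0632).

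Fgf8, a morphogen of early organ formation, stood at -0.52, -0.75 and -0.93 at 72 h, against 0.16, 0.54, 0.52, 0.55 and 0.01 in sham lungs. The 3 bled arrays lay below all sham arrays and below all other bled arrays. It fell by 1.09 (SE 0.22, limma adjusted p = 0.00701), a call lost without 72 h replicate 3 (-0.99, adjusted p = 0.0682). At 1 h Fgf8 was at 0.59, 1.69 and 0.87, above all sham arrays, with a difference of 0.69 that was not called. The F test over any time called it (adjusted p = 0.0078), and it did so without each array in turn.

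Fgf17, of the same subfamily as Fgf8, stood at -0.22, -0.81 and -1.27 at 72 h, against 0.82, 0.52, 0.35, 0.57 and 0.37 in sham lungs. No array of these 2 groups overlapped, and Fgf17 fell by 1.29 (SE 0.33, limma adjusted p = 0.0235). The call was lost without 72 h replicate 2 (-1.27, adjusted p = 0.107) or 3 (-1.04, adjusted p = 0.188). It lay below sham at all 7 times.

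Fgf2, a ligand held in the matrix and released on injury, moved the other way without a call. It stood at 0.54, 0.55, 0.60, 1.38 and 0.62 at 6 h, against -0.60, -0.18, -0.44, -0.19 and 0.06 in sham lungs. All 5 bled arrays lay above all 5 sham arrays, and the difference was 1.01 (SE 0.27, limma adjusted p = 0.0722). At 72 h it was 0.99 (adjusted p = 0.0568). Its mean difference over the 7 times was 0.68 (adjusted p = 0.0728), and it lay above sham at all 7 times.

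Vegfa, one of the genes highest over the pool at rest, had ratios of -0.52, 0.36 and 0.62 at 3 h, against 1.54, 0.56, 1.52, 1.12 and 1.22 in sham lungs. One 3 h array lay above the lowest sham array. The difference at 3 h was -1.04 (SE 0.33, limma adjusted p = 0.0755), and the differences at the other times ran from -0.39 at 16 h to -0.86 at 24 h and 72 h. Its mean over the 7 times was -0.73 (SE 0.22, adjusted p = 0.0676). Vegfa lay below sham at every time and was called at none. Vegfc and Vegfd, the ligands of lymphatic vessels, were not called either, with differences from -0.68 to 0.44 and from -0.48 to 0.64.

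The other ligands showed no call against sham. Pdgfa, a mitogen of mesenchymal cells, stood at -0.13, -0.13 and -0.23 at 1 h and at 0.16, -0.21 and -0.58 at 3 h, against 1.22, 0.50, 0.68, 0.59 and 0.30 in sham lungs. All 6 bled arrays lay below sham, with differences of -0.82 and -0.87 (limma adjusted p = 0.0585 at 3 h). Inhba, the activin A subunit, differed by -0.84 at 3 h (adjusted p = 0.0585), again with no overlap. Igf1, the ligand that carries much of growth hormone's effect, differed by -0.82 at 6 h (adjusted p = 0.112) and by -1.24 at 16 h (adjusted p = 0.131), where its 2 arrays stood at -1.87 and -0.38.

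The TGF-beta ligands Tgfb1, Tgfb2 and Tgfb3 had differences from -0.45 to 0.13, from -0.31 to 0.33 and from -0.82 to -0.06. Among BMP ligands, Bmp2 ran from -0.20 to 0.16 and Bmp4, a signal of lung branching, from -0.58 to 0.64. Fgf7 (keratinocyte growth factor) and Fgf10, ligands that mesenchyme sends to lung epithelium, ran from -0.32 to 0.47 and from -0.69 to 0.47. Wnt5a differed by 0.99 at 1 h, its largest value, and Wnt4 by no more than 0.12 upward and -0.43 downward. None of these 9 ligands was called at any time. Of 2 FGF genes with poorly agreeing spots, Fgf13 differed by 2.40 at 1 h and Fgf20 by -2.20 at 24 h, neither called. The Fgf20 arrays stood at -1.51, -1.13 and -6.58 at 24 h, against -1.08 to -0.52 in sham lungs. Fgf12, which like Fgf13 stays inside the cell, differed by 1.15 at 3 h, 1.29 at 48 h and 1.10 at 72 h (limma adjusted p = 0.0741, 0.0722 and 0.0693).

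Fgfbp1, a secreted protein that frees FGFs from the matrix, rose late. It stood at 0.10, 0.36 and 0.78 at 72 h, against -0.65, -1.11, -0.18, -0.29 and -0.04 in sham lungs. All 72 h arrays lay above all sham arrays, and it rose by 0.87 (SE 0.23, limma adjusted p = 0.0248). At 48 h its arrays stood at 0.52, 0.35 and 0.20, also above sham, with a difference of 0.81 (adjusted p = 0.0716). The 72 h call was lost without sham replicate 1 (adjusted p = 0.0506) or 3 (0.0618), without 72 h replicate 2 or 3 (at most 0.209), and with all 32 arrays (a difference of 0.81, adjusted p = 0.0578). Of the 5 genes that encode IGF-binding proteins (Igfals among them), which hold IGFs in blood and tissue, none was called; Igfbp3 had its lowest difference, -0.90, at 24 h, and Igfbp5 had -0.58 at 72 h (adjusted p = 0.0525).

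Among receptors, Igf2r was called at 3 h and at no other time. Its ratios were -0.03, -0.48 and -0.65 at 3 h, against 1.17, 0.84, 0.68, 1.20 and 1.16 in sham lungs. The 3 bled arrays lay below all other arrays used, and Igf2r fell by 1.40 (SE 0.28, limma adjusted p = 0.0120, a 2.63-fold difference). At 6 h the difference was -0.49 and at 16 h 0.21, neither called. Without each array in turn the 3 h call was kept (adjusted p at most 0.0417), and with all 32 arrays the difference was -1.23 (adjusted p = 0.0857). Igf1r, which signals for both IGFs, differed by 0.79 at 3 h without a call.

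Fgfr2, the receptor through which FGF7 and FGF10 act on epithelium, stood at -0.25, 0.05 and -0.30 at 3 h, against 1.01, 0.60, 0.12, 0.82 and 0.80 in sham lungs. The groups did not overlap, although sham replicate 4 at 0.12 came close. It fell by 0.84 (SE 0.22, limma adjusted p = 0.0407). Fgfr2 was measured by 2 sequences that disagreed in size: one gave -1.14 (adjusted p = 0.0271) and the other -0.53 without a call. The gene's call was lost without any single array of these groups but sham replicate 4 (adjusted p = 0.0518 to 0.0996) and with all 32 arrays (-0.73, adjusted p = 0.132). The sequences of Fgfr1 disagreed as well: at 16 h one gave -1.74 and the other -0.06, neither called. Those of the ligand Bmp6 did so at 72 h. One gave -1.30 (limma adjusted p = 0.0350) and the other -0.29 without a call, and the averaged gene was not called.

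Tgfbr3 stood at 0.01, -0.28 and -0.29 at 72 h, against 0.72, 0.38, 0.81, 0.56 and 0.79 in sham lungs. The groups did not overlap, and Tgfbr3 fell by 0.84 (SE 0.21, limma adjusted p = 0.0232). The 72 h arrays lay within the range of the 3 control arrays, -0.46 to 0.04. With sham and control arrays pooled as the baseline the difference was -0.48 (adjusted p = 0.24). The call was also lost without 72 h replicate 2 (-0.79, adjusted p = 0.119) or 3 (-0.78, adjusted p = 0.144) and with all 32 arrays (-0.74, adjusted p = 0.0771). Tgfbr1, the signalling receptor, was not called, with -0.67 at 3 h as its lowest difference.

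Fzd3, a WNT receptor best known from axon growth, stood at -0.01, 0.14 and 0.08 at 72 h, against -1.88, -1.84, -1.09, -1.86 and -2.17 in sham lungs. The 72 h arrays were close together and lay far above sham. Fzd3 rose by 1.84 (SE 0.43, limma adjusted p = 0.0165, a 3.57-fold difference). At 24 h it stood at 0.45, -0.33 and -0.90, above sham as well, with a difference of 1.51 (adjusted p = 0.0516). The 72 h call was lost without 72 h replicate 2 (1.80, adjusted p = 0.0850) or 3 (1.83, adjusted p = 0.0844) and with all 32 arrays (1.55, adjusted p = 0.0800). The other WNT receptors tested, Fzd1, Fzd2 and Fzd4, were not called.

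Notch2 and Notch3, receptors of contact signalling, had their largest differences at 6 h, 0.82 and 0.76, which were not called (limma adjusted p = 0.125 and 0.118). Pdgfra and Pdgfrb, receptors of mesenchymal cells, differed by -0.90 at 16 h and by 0.81 at 1 h at the most, without a call. The paired spots of Pdgfrb did not agree: across arrays they correlated at -0.08. Bmpr1a reached 0.81 at 72 h (adjusted p = 0.126). Egfr had differences from 0.02 to 1.36, none called. Its SD over the unbled arrays was 2.01, and its paired spots correlated at 0.38.

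Among the transducers Smad4, the common partner of the receptor-regulated Smads, rose. It stood at 0.80, 1.13 and 1.25 at 72 h, against -0.17, -0.21, -0.52, -0.33 and -0.02 in sham lungs. Every array from 3 h on lay above every sham array, while at 1 h the arrays stood at -0.79, -2.27 and -0.19. Smad4 rose by 1.31 at 72 h (SE 0.34, limma adjusted p = 0.0248). At 6 h its arrays ran from 0.47 to 1.11 with a difference of 1.08 that was not called (adjusted p = 0.0769). The F test over any time called it (adjusted p = 0.0105), also without each array in turn. The 72 h call was lost without 72 h replicate 2 (1.27, adjusted p = 0.119) or 3 (1.22, adjusted p = 0.152).

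Smad9, a Smad of the BMP branch, stood at -0.13, -0.29 and -3.13 at 3 h, against 0.65, 0.32, -0.05, 0.82 and 0.63 in sham lungs. The groups did not overlap, but 3 h replicate 3 was far below all others. Smad9 fell by 1.66 (SE 0.42, limma adjusted p = 0.0374), and without 3 h replicate 3 the difference was -0.68 (adjusted p = 0.110). The call was also lost without sham replicate 1, 3, 5 or 6 (adjusted p = 0.0597 to 0.0771) and with all 32 arrays (-1.49, adjusted p = 0.0840). Smad2 and Smad3, the Smads of TGF-beta and activin, were not called, nor were Smad1 and Smad5 of the BMP branch or the inhibitory Smad6 and Smad7. Smad2 had its lowest difference, -0.79, at 24 h (adjusted p = 0.0886).

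**Figure D4:**
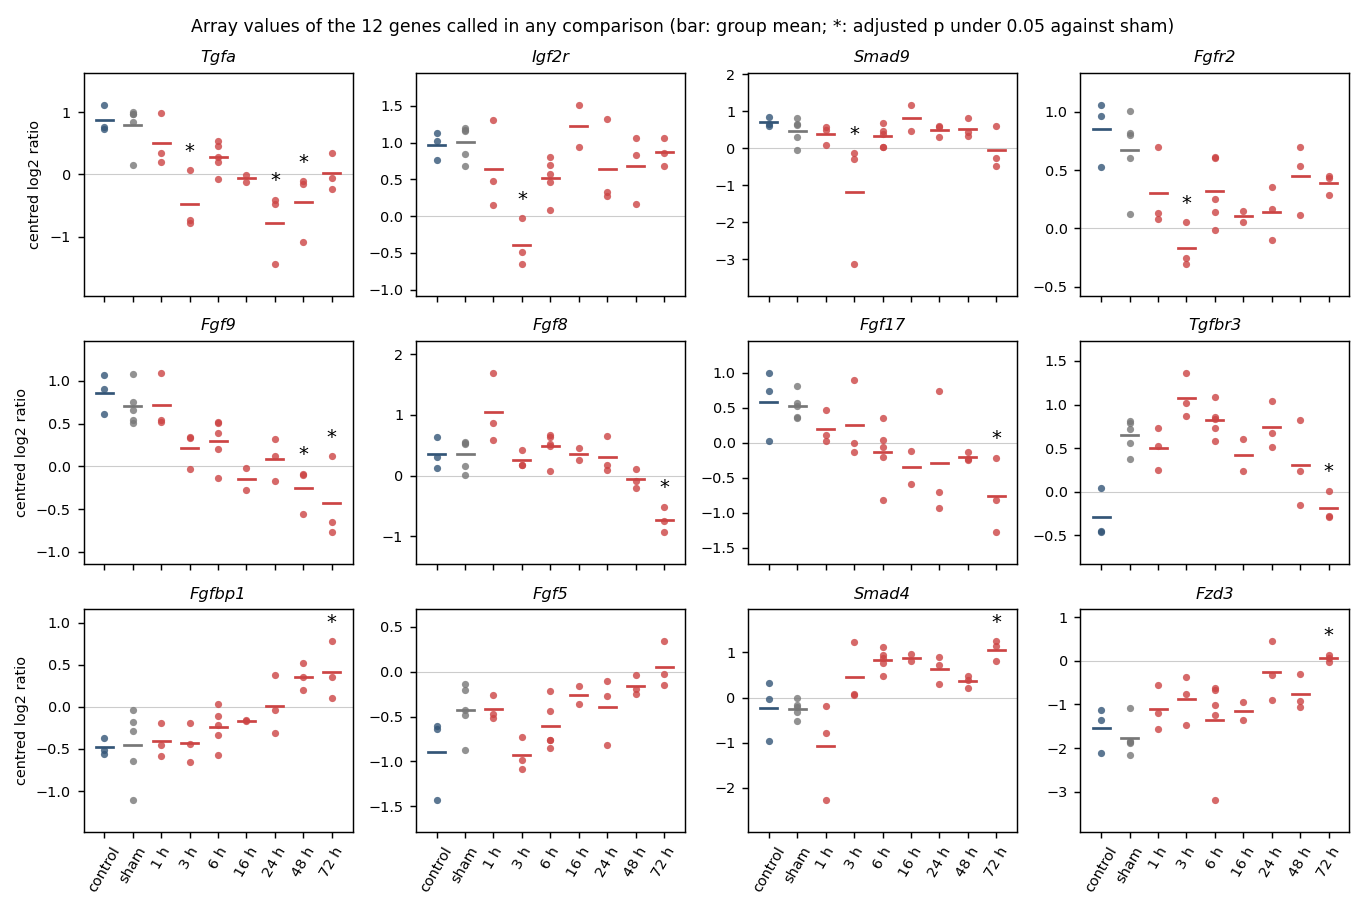
Centred log2 ratio on every array for the 12 genes called in any comparison (dots), with the group mean as a bar, in control and sham lungs and at 1 to 72 h after hemorrhage; an asterisk marks an adjusted p under 0.05 against sham. Fgf8, Fgf9, Fgf17 and Tgfbr3 are lowest at 72 h by group mean among bled lungs, Fgfbp1, Fgf5, Smad4 and Fzd3 are highest there, and Igf2r, Fgfr2 and Smad9 are lowest at 3 h.

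The plot of the 12 genes by array marks the times of their calls. A call at 1 time and none at another does not test a difference between those times. The 3 h group alone held the calls of Igf2r, Fgfr2 and Smad9, and the 72 h group alone those of Fgf8, Fgf17, Tgfbr3, Fzd3, Fgfbp1 and Smad4. Single arrays were left out in turn. The count of genes called at 3 h was 1 without sham replicate 6 (0.651% of all features). It was 2 without sham replicate 1, 3 or 5 or 3 h replicate 1 or 2 (0.951% to 2.22%). It was 5 without sham replicate 4 (6.09%) and 7 without 3 h replicate 3 (9.6%). At 24 h it was 0 without 24 h replicate 3 (0.523% of all features) and 2 without sham replicate 1 (1.99%). It was 3 without 24 h replicate 1 (3.15%) or sham replicate 4 (5.44%), and 5 without 24 h replicate 2 (3.98%). At 48 h it was 0 (0.0338% to 0.401% of all features) without any array but sham replicate 4. At 72 h it was 12 without 72 h replicate 1 (7.97% of all features). It was 1 without 72 h replicate 2 (0.842%) and 0 without 72 h replicate 3 (0.555%). At 16 h it was 1 without 16 h replicate 2. With only the bled group and sham in the fit, all calls at 3, 24 and 48 h were lost, and at 72 h those of Fgfbp1 and Tgfbr3.

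Late lungs (24, 48 and 72 h, 9 arrays) were set against early lungs (1, 3 and 6 h, 11 arrays). Sham arrays do not enter this difference, but they enter the spread behind its p-values, which is shared by all 9 groups. limma called 5 of the 81 genes, 2 higher and 3 lower in late lungs, against 7.04% of all features (2.67% higher and 4.37% lower). At an unadjusted p under 0.05 it was 34.6% of the genes and 24.7% of features. Of the 5, 4 were of the FGF family, which makes up 25 of the 81 genes. Whether that family stood out was not tested. The median difference was 0.04 over the 81 genes and 0.00 over all features. The epithelial genes moved here too: 3 of the 10 epithelial markers, Cdh1, Scgb1a1 and Sftpa1, were called lower in late lungs, and 5 of the 10 at 72 h against sham. Both erythroid genes measured, Alas2 and Rhag, were called higher in late lungs. Of the 8 leukocyte genes Cd8a and Mmp8 were called higher there and Ptprc lower. Their part in the results below was not tested.

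Fgf8 ran from -0.93 to 0.65 with a median of -0.10 in late lungs, against 0.08 to 1.69 with a median of 0.52 in early lungs. The sets overlapped in part. Fgf8 was lower in late lungs by a log2 difference of -0.76 (SE 0.14, limma adjusted p = 0.0033). Fgf9 ran from -0.77 to 0.32 with a median of -0.10 in late lungs, against -0.13 to 1.09 with a median of 0.39 in early lungs, a difference of -0.61 (SE 0.14, adjusted p = 0.0120). Fgfbp1 ran from -0.31 to 0.78 with a median of 0.35 in late lungs, against -0.66 to 0.03 with a median of -0.33 in early lungs, a difference of 0.62 (SE 0.14, adjusted p = 0.0112). These 3 calls were kept without each of the 20 arrays in turn and with all 32 arrays.

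Tgfbr3 ran from -0.29 to 1.04 with a median of 0.23 in late lungs, against 0.25 to 1.36 with a median of 0.83 in early lungs. It was lower by -0.51 (SE 0.13, limma adjusted p = 0.0227), and the call was lost without 48 h replicate 3 (-0.44, adjusted p = 0.0545), with all 32 arrays (-0.51, adjusted p = 0.0602) and with only late and early arrays in the fit (adjusted p = 0.0506). Fgf5, a ligand known as the brake on hair growth, ran from -0.81 to 0.34 with a median of -0.15 in late lungs, against -1.09 to -0.21 with a median of -0.72 in early lungs. Its difference was 0.49 (SE 0.14, adjusted p = 0.0344), and the call was lost without 9 of the 20 arrays (1 h replicate 3, 3 h replicate 3, 6 h replicates 3 and 5, 24 h replicate 3, 48 h replicates 1 and 3, and 72 h replicates 2 and 3; adjusted p = 0.0515 to 0.0819). The count of 5 genes became 3 without 48 h replicate 3 (4.62% of all features) and 8 without 48 h replicate 2 (8.12%).

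**Figure D5:**
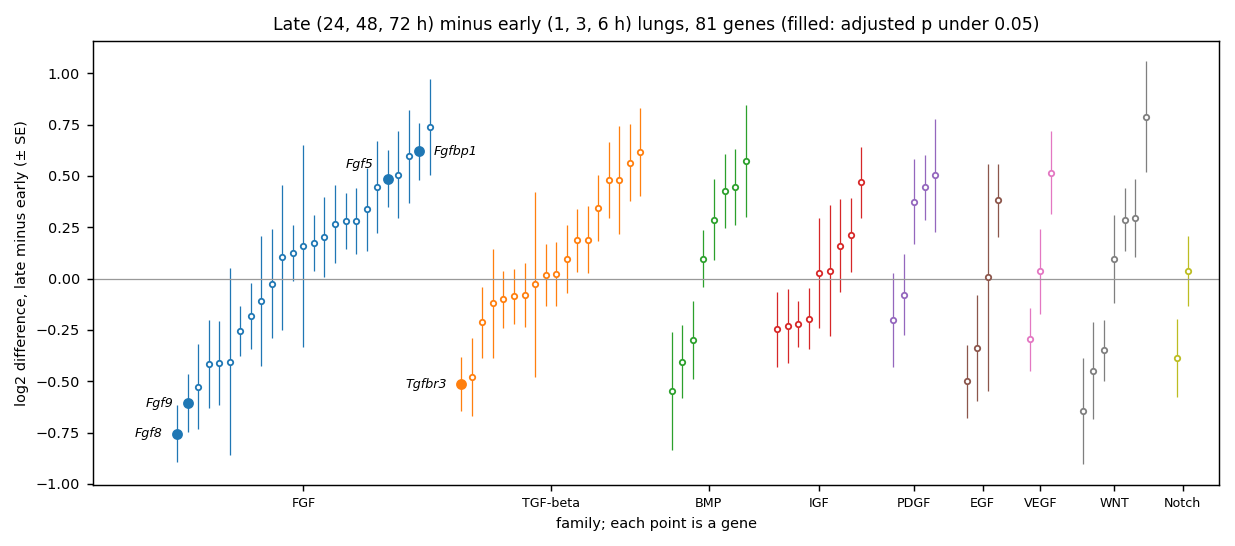
Log2 difference of late minus early lungs with its SE for the 81 genes, sorted within each family; filled points have an adjusted p under 0.05. The 5 filled points are Fgf8, Fgf9, Fgf5, Fgfbp1 and Tgfbr3; Fzd3, in the WNT family, lies at 0.79 with an SE of 0.27 and is open.

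Quantile normalization in place of centring moved the split of late against early calls to 5 higher and 3 lower (8.33% of all features). The median over 8 leukocyte markers was 0.23 to 0.68 at 72 h, against 0.11 to 0.58 in sham lungs, and single markers went opposite ways. Mmp8, a collagenase of neutrophils, stood at 1.76, 3.46 and 0.75 at 72 h, against -3.02, -2.47, -1.51, -2.68 and -2.21 in sham lungs, and was called higher. Ptprc (CD45), found on all leukocytes, stood at -0.13, -0.30 and -0.77 at 72 h, against 0.53, 1.02, 0.13, 1.01 and 0.71 in sham lungs, and was called lower. The erythroid gene Rhag was called higher. Their part in the 72 h calls of Fgf8, Fgf9, Fgf17, Tgfbr3, Fgfbp1, Fzd3 and Smad4 was not tested, nor was that of the epithelial genes.

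Other genes of the same pathways were also called in both directions. Of 122 listed genes, receptors, inhibitors, transducers and targets that do not carry the symbols above, 76 were tested. At 3 h 5 were called, all lower: Erbb2 (-1.29), the partner receptor of EGF-family signalling, Flt4 (-1.11), the receptor of VEGFC, Nrp2 (-1.02), a co-receptor of VEGFs, and the kinases Gsk3b (-1.43) and Csnk1a1 (-1.19), which mark beta-catenin for destruction. At 24 h 2 were higher and 3 lower, at 48 h 1 higher and 1 lower, and at 72 h 4 higher and 6 lower. These are 6.58% of the listed genes tested at 3 h, 6.58% at 24 h, 2.63% at 48 h and 13.2% at 72 h, against 2.8%, 3.55%, 1.17% and 5.91% of all features. At 1, 6 and 16 h limma called 0 of them.

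At 72 h the genes called higher were Pgf, a VEGF-family ligand, Kdr, the main VEGF receptor, Acvr1, a BMP and activin receptor, and Gdf9. Those called lower were Gdf15, a stress-induced ligand of the TGF-beta family (-0.94), Axin2, a WNT target that restrains beta-catenin (-1.22), Sfrp4, a secreted WNT antagonist (-1.15), Acvrl1, the BMP receptor of endothelium (-0.72), and Hes3 and Hes5, of a family of Notch targets (-1.16 and -2.03). Acvr1 rose by 1.29 at 72 h (SE 0.25, limma adjusted p = 0.00532). It stood at 0.59, 1.34 and 1.12 there, against -0.49, 0.03, -0.55, -0.55 and 0.16 in sham lungs. The list was thus called in both directions at 72 h, as the 81 genes were.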

How the data were processed

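Lung RNA and a pool of organ RNA were hybridised together on 2-colour spotted arrays, per the labels. The values deposited by the authors are log2 ratios of both channels; scanner software, background correction, normalization and dyes were not given in the sources used. On the linear scale 100% of the deposited values lay within 0.001 of a multiple of 0.01, so very low ratios are coarse. Of the 13056 spots 10652 had 1 gene symbol in the platform annotation, 16 several and 2388 none.

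Ratios were centred on each array's median (-0.38 to 0.06 as deposited), and the spots of a gene were averaged. Within an array the correlation of paired spots ran from 0.623 to 0.877. One model over 30 arrays and 9 groups was fitted with limma (version 3.58.1, under R 4.3.3, with statmod 1.5.0): lmFit, then eBayes, all tests two-sided. A feature entered with at least 2 values in every group, which left 5993, and p-values were adjusted over these by the Benjamini-Hochberg method at a threshold of 0.05. There were 11 comparisons: each of 7 times with sham, an F test over the times, their mean, late with early, and sham with control. The calculation was tested on simulated data. No arrays were duplicates (highest correlation 0.787). Alternatives changed the scaling, arrays, spots and model.

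Genes were named where called (at most 10 a direction), where among the 4 of smallest p in a comparison, where among the 8 highest or 8 lowest at rest, or from a list of well known members. Bmp6, Bmpr1a, Fgf14, Igfbp5, Fzd2, Fzd9, Smad1, Smad5, Smad6, Vegfc and Vegfd were named after their values were seen. The genes, lists and tests were chosen with earlier results of these data known. Sequences come from RefSeq tables of build GRCr8.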

Additional observations from a re-analysis of the deposited data

Results flagged for a closer look

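Among 108 groups of 4 to 10 arrays of named genes, 5 (4.63%) held 1 array far from the others by Dixon's criterion; chance gives about 1 in 20. In sham lungs Tgfa stood at 0.15 on replicate 4, with the others at 0.84 to 1.00, and Fgf16 at -0.73 on the same array, with the others at 0.08 to 0.22. Bmp2k stood at -2.24 on sham replicate 5, with the others at -1.63 to -1.41. At 6 h Fgf2 stood at 1.38 on replicate 4, with the others at 0.54 to 0.62, and Fzd3 at -3.19 on replicate 5, with the others at -1.24 to -0.63.

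Late and early lungs differed by test in 5 genes: the log2 difference of late minus early was -0.76 for Fgf8, -0.61 for Fgf9, -0.51 for Tgfbr3, 0.62 for Fgfbp1 and 0.49 for Fgf5.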

How the results depend on the processing

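Of the 594 differences of named genes, 14934 values under other settings included 14582 in the same direction and on the same side of the threshold, 173 newly called, 119 no longer called, 60 moved and 0 reversed. The counts of genes called moved more, and the cause was not tested unless the setting itself shows it. With all 32 arrays they were 0 at 3 h, 1 at 16 h, 0 at 48 h and 4 at 72 h. Over any time it was 3, for the mean 4 and for late against early 3. Of all features that setting called 0.462%, 1.63%, 0.0826%, 2.99%, 2.25%, 3.81% and 3.24% in that order. Without centring 24 h gave 7 (all lower) and the mean 4, against 6.99% and 4.52% of all features. This setting moved the median of all features at 24 h by -0.18, to -0.15. Quantile normalization gave 11 at 72 h (5 higher, 6 lower), 4 for the mean (1 higher, 3 lower) and 8 for late against early. The shares of all features were 8.48%, 4.54% and 8.33%. Features with a value on every array, and spots at or below a ratio of 0.05 left out, each gave 2 at 24 h. Their shares of all features were 3.71% and 3.66%. Array weights gave 1 at 1 h, 3 at 6 h, 4 at 16 h, 15 at 48 h and 17 at 72 h. They gave 35 over any time, 13 for the mean, 11 for late against early and 1 for sham against control. Of all features array weights called 0.884%, 5.06%, 3.04%, 16.7%, 14.3%, 36.5%, 14.2%, 12.7% and 0.0667% in that order. Only the groups compared in the fit, which leaves fewer arrays for the spread, gave 0 at 3, 24 and 48 h. Of all features it called 0.0484%, 0% and 0.0484% there. Sham and control pooled as the baseline gave 5 at 6 h, 7 at 24 h and 18 for the mean. These compare with 6.09%, 9.72% and 19.8% of all features.

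Without each array in turn the counts ran from 1 to 7 at 3 h, 0 to 1 at 16 h, 0 to 5 at 24 h, 0 to 2 at 48 h, 0 to 12 at 72 h, 4 to 10 over any time, 1 to 5 for the mean and 3 to 8 for late against early, and stayed at 0 at 1 h, 6 h and for sham against control. Without a replicate the mean gave 1 without sham replicate 1, 3 or 6 (1.07% to 1.44% of all features). It gave 4 without sham replicate 4 or 1 h replicate 1 (4.09% and 4.23%), and 5 without 3 h replicate 3 (6.16%). Any time gave 10 without 24 h replicate 2 (9.4%).

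The replicate numbers did not pair the samples: of 94 pairs with the same number 22 correlated above 0.1 (median -0.01), and 7 of 25 arrays correlated best with their own number. With the number as a replicate block the counts were 1 at 3 h, 3 at 24 h and 0 at 48 h. They were 4 at 72 h, 2 over any time, 1 for the mean and 3 for late against early. Of all features 0.991%, 2.69%, 0.0504%, 2.05%, 1.19%, 1.78% and 4.21% were called in that order. Groups of 2 to 5 arrays limit what could be called, and spots near the lowest ratio limit the low genes.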
